A study of Mus musculus with 6 samples.

Results

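The Cyp2a genes of the mouse encode liver cytochrome P450 enzymes, and 4 of them were examined here: Cyp2a4, Cyp2a5, Cyp2a12 and Cyp2a22. They were selected on these same data, as genes of the coumarin-metabolizing P450 family that were higher in livers of esculetin-treated mice, and they are 4 of the 55357 genes in the count table. Because the difference between the groups was used to choose them, their values in that contrast are given as a description, without a test. All 4 had enough counts to enter the fit of 14433 genes, although Cyp2a4 did so only through its counts in the esculetin libraries.

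Cytochrome P450 enzymes of the endoplasmic reticulum insert an oxygen atom into fat-soluble compounds, using electrons passed on by P450 oxidoreductase and, for some reactions, cytochrome b5. Cyp2a5, the counterpart of human CYP2A6, is the main coumarin hydroxylase of mouse liver and is known for its induction by many unrelated chemicals and liver stresses. Cyp2a4 is a close relative that hydroxylates steroids, and Cyp2a12 is a hydroxylase of steroids and bile acids. Hydroxylated coumarins are in turn conjugated by enzymes such as glucuronosyltransferases and sulfotransferases. Esculetin is itself a hydroxylated coumarin.

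Liver RNA came from wild-type male C57BL6/J mice, 8 to 9 weeks old, that were gavaged daily for 7 days with 2.5% Tween-80 (vehicle group) or esculetin. All mice received a control diet with 10% of its energy from fat for 4 days and then a high-fat diet with 60% of its energy from fat (HFD) for 3 days, so no group without HFD was analysed here. The annotations disagree on the dose, which the sample names and the protocol give as 180 mg/kg/d and the treatment field gives as 90 mg/kg/d. Each group had 3 libraries, each pooled from 2 mice, so that p-values measure the spread between pools. The libraries held 27957713 to 34920922 counts, and the 3 deepest were those of the esculetin group. The hepatocyte markers albumin (Alb), Apoa1 and Ttr were abundant throughout, the lowest being 4639 CPM for Ttr (CPM are counts scaled by library depth, here with the TMM method of edgeR). The other hepatocyte markers were Tat, at 2396 CPM or more, and Serpina1c, at 688 to 787 CPM with vehicle and 994 to 1168 CPM with esculetin (log2 fold change 0.52, edgeR adjusted p = 0.132), and 0 of 5 passed the thresholds given next. Genes other than the members were called where p before adjustment was under 0.05 and the groups differed by more than 1.5-fold. Of all genes tested 1.37% were called higher and 1.76% lower, and 0.0416% had a Benjamini-Hochberg adjusted p-value under 0.05. Marker lists of Kupffer and endothelial cells had 0 of 4 genes past the thresholds in each, while in stellate and cholangiocyte lists 1 of 4 passed in each, Des (log2 fold change 0.69) and Spp1 (−0.75), whose calls were both lost without esculetin library 2, and that of Spp1 also without vehicle library 3. The summed level of the 4 Kupffer markers was 239.7 to 326.1 CPM in vehicle and 249.2 to 256.1 CPM in esculetin libraries, and that of the 4 cholangiocyte markers 37.4 to 78.5 and 27.2 to 42.2 CPM. In bulk liver, fewer expressing cells and less RNA per cell cannot be told apart.

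The 4 genes lie within a cluster of 16 Cyp2 genes and pseudogenes on chromosome 7, given here by GENCODE coordinates on GRCm39. Cyp2a4 (ENSMUSG00000074254) is at chr7:26006594-26014513 on the plus strand, and Cyp2a5 (ENSMUSG00000005547) at chr7:26534730-26542973 on the plus strand, 520 kb further on. Cyp2a22 (ENSMUSG00000091867) at chr7:26631056-26638809 is on the minus strand, and Cyp2a12 (ENSMUSG00000060407) at chr7:26728506-26736800 is on the plus strand. The canonical transcript of each has 9 exons. By sequence they form 2 close pairs. The coding sequences of Cyp2a4 and Cyp2a5 were 98.5% identical, with 23 substitutions in 1485 bases, and those of Cyp2a12 and Cyp2a22 were 97% identical, with 45 substitutions in 1479 bases. Between the pairs the identity was 74.9% to 76.1%.

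The 100 coding bases with the most differences between Cyp2a5 and Cyp2a4 are shown because these differences are what tells reads of the pair apart. The stretch runs from base 570 to base 669, counted from the first base of the start codon, and capitals mark the bases that differ.
Cyp2a5: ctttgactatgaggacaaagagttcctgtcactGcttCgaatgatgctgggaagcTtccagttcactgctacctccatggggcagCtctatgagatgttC
Cyp2a4: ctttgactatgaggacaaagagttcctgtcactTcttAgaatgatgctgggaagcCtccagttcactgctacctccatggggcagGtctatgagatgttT
With the base of Cyp2a5 first, the 5 substitutions are G603T, C607A, T625C, C655G and C669T. A read of 150 bases that covers this whole stretch carries all 5 of them, whereas the longest stretch of coding sequence without any difference is 216 bases. The reads were paired, and the windows counted next describe single reads. Of 1589 windows of 150 bases in the Cyp2a4 transcript, 67 (4.22%) were also found in Cyp2a5. Of 1883 such windows in Cyp2a5, 108 (5.74%) were found in another gene, 67 of them in Cyp2a4 and 41 in the pseudogene Cyp2a21-ps. Cyp2a12 and Cyp2a22 shared 57 windows, which were 3.72% and 3.45% of their transcripts. How reads that match several genes were assigned is not given in the sources used here, so counts of the rarer gene in each pair are uncertain.

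The promoters divided in the same way. Over the 250 bases before the start annotated by RefSeq (GRCm38.p6), Cyp2a4 and Cyp2a5 were 97.6% identical and Cyp2a12 and Cyp2a22 were 82.8% identical, while the identity between pairs was 46.1% to 49.1%. The stretches of Cyp2a4 and Cyp2a5 that lie upstream of the GENCODE transcript are shown because the proximal promoters of these genes, with their different levels and changes, differ at so few bases. They were placed on GRCm39 by an exact match, at chr7:26006367-26006593 and chr7:26534514-26534729 on the plus strand, and capitals mark the 4 substituted bases.
Cyp2a4: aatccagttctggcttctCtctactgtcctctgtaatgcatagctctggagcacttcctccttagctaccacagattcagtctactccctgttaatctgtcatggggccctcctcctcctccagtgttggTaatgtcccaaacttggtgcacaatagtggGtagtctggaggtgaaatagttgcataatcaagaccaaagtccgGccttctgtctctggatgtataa
Cyp2a5: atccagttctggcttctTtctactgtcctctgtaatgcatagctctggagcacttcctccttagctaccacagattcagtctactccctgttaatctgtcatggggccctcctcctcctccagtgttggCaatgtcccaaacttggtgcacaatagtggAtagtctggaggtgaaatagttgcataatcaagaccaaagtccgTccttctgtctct
Letters of 9 motifs were searched on both strands of the 250 bases and in all 27025 promoters of the table. The TATA letters TATAAA were found in all 4 genes, at −28 or −29 in Cyp2a4, Cyp2a5 and Cyp2a22 and at −39 in Cyp2a12, and in 13% of all promoters. The C/EBP letters TTGCNNAA were found in Cyp2a4 (at −70) and in Cyp2a5 (at −71) and in 9.55% of all promoters, and had no match in the other pair. The NF-I letters TTGGCA were found in Cyp2a5 alone among the 4 genes, at −125, where they span the substituted base at −121, and in 12.5% of all promoters. The other 6 had no match in any of the 4 genes: GCGTG of the AhR core (28.2% of all promoters), TGACNNNGC of the antioxidant response element (10.1%), the E-box CACGTG (6.05%), AGGTCA of nuclear receptors (13.8%), TTCNNNGAA of STAT factors (7.18%) and TTANGTAA of DBP (2.11%). A match of letters is a description of the window and not evidence of binding.

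Cyp2a5 was the gene of the family with the most added RNA. Its level was 422, 342 and 374 CPM in the vehicle libraries and 1336, 1334 and 1138 CPM in the esculetin libraries. The groups were far apart, with the lowest esculetin library well above the highest vehicle library. The mean was 379 ± 40.5 CPM with vehicle and 1270 ± 114 CPM with esculetin (SD, n = 3), a ratio of 3.35 and a log2 fold change of 1.74 (SE 0.10). Among the 14433 genes the level of Cyp2a5 was at the 97.8th percentile with vehicle and at the 99.3rd with esculetin, and its log2 fold change ranked at place 23. It thus combined a high level in vehicle livers with a large difference.

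Cyp2a4, the steroid hydroxylase, was nearly undetected with vehicle and had the highest log2 fold change of all genes tested. It had 12, 2 and 5 counts in the vehicle libraries and 73, 218 and 278 counts in the esculetin libraries. In CPM these were 0.409, 0.0614 and 0.182 with vehicle and 2.27, 6.28 and 8.30 with esculetin, with means of 0.217 ± 0.176 and 5.62 ± 3.07 (SD, n = 3). The esculetin libraries differed among themselves, with library 1 the lowest and library 3 the highest, but none overlapped a vehicle library. The log2 fold change was 4.69 (SE 0.61), which is 25.9-fold. With 1 library left out it ranged from 4.22 (18.6-fold, without vehicle library 2) to 5.54 (46.5-fold, without vehicle library 1). The 569 counts summed over the esculetin libraries, against 19 over the vehicle libraries, gave a ratio of 26.7 after normalization, with a 95% exact interval of 16.9 to 44.6 that covers counting error only. The coefficient of variation of Cyp2a4 was 54.6% between esculetin libraries, against 8.96% for Cyp2a5, and the esculetin library with the highest Cyp2a4 had the lowest Cyp2a5.

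Cyp2a22 was also rare, with 35, 42 and 22 counts in the vehicle and 64, 68 and 107 counts in the esculetin libraries. Its level was 1.19, 1.29 and 0.802 CPM with vehicle and 1.99, 1.96 and 3.19 CPM with esculetin. The groups did not overlap, and the means were 1.09 ± 0.258 and 2.38 ± 0.704 CPM (SD, n = 3), with a log2 fold change of 1.11 (SE 0.31). The ratio of summed counts was 2.15, with a counting interval of 1.69 to 2.75.

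Cyp2a12, the bile acid and steroid hydroxylase, was abundant in both groups and hardly differed. Its level was 566, 604 and 648 CPM in the vehicle libraries and 679, 671 and 659 CPM in the esculetin libraries. The highest vehicle library was just under the lowest esculetin library, and the means were 606 ± 41.4 and 670 ± 9.89 CPM (SD, n = 3). The ratio of these means was 1.11 and the log2 fold change 0.14 (SE 0.078), at place 3466 of all genes tested. The next lowest ratio of means among the members was that of Cyp2a22, 2.18.

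**Figure D1:**
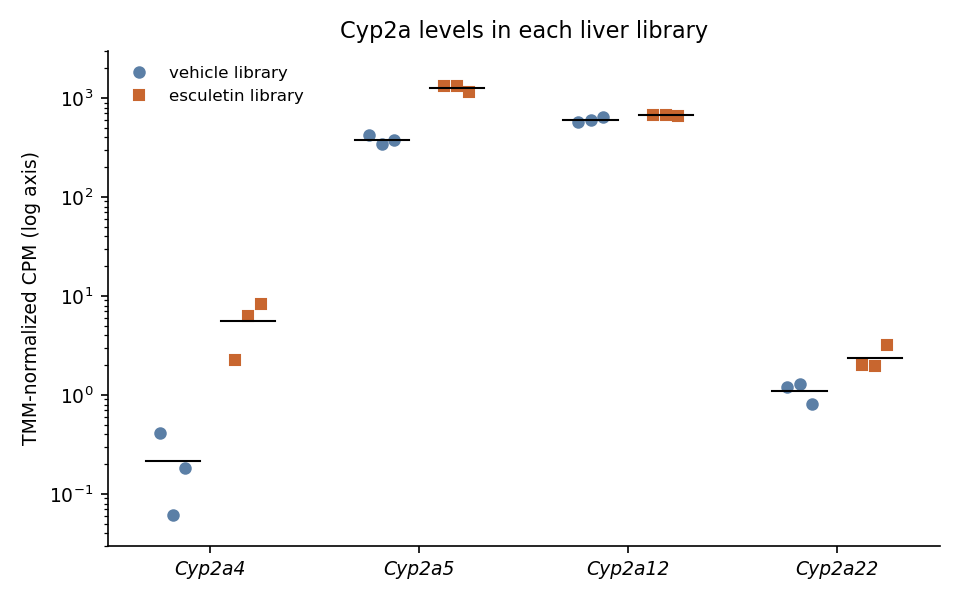
TMM-normalized CPM (log axis) of the 4 Cyp2a genes in each library, with circles for vehicle, squares for esculetin and a line at each mean of 3 libraries. Mean levels with vehicle and esculetin were 379 and 1270 CPM for Cyp2a5 and 0.217 and 5.62 CPM for Cyp2a4, while all Cyp2a12 values lay between 566 and 679 CPM.

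In each of the 4 genes every esculetin library lay above every vehicle library, as in 9.2% of all genes tested. Nothing is read from this, since the members were chosen on this contrast. The median log2 fold change of all genes was −0.008.

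Together the 4 genes had 990, 947 and 1023 CPM in the vehicle libraries and 2020, 2013 and 1809 CPM in the esculetin libraries, a ratio of means of 1.97. Nearly all of these counts came from Cyp2a5 and Cyp2a12, and their order switched. Cyp2a5 made up 42.7%, 36.1% and 36.5% of the family's counts in the vehicle libraries and 66.2%, 66.3% and 62.9% in the esculetin libraries. Cyp2a12 made up 57.2%, 63.7% and 63.4% with vehicle and 33.6%, 33.3% and 36.4% with esculetin. The widest exact 95% binomial interval of these shares, from 56.6% to 57.7%, was that of Cyp2a12 in vehicle library 1, and it covers counting error only. Cyp2a4 made up 0.0219% ± 0.0177 with vehicle and 0.294% ± 0.174 with esculetin, and Cyp2a22 made up 0.112% ± 0.0298 and 0.124% ± 0.0454 (SD, n = 3).

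**Figure D2:**
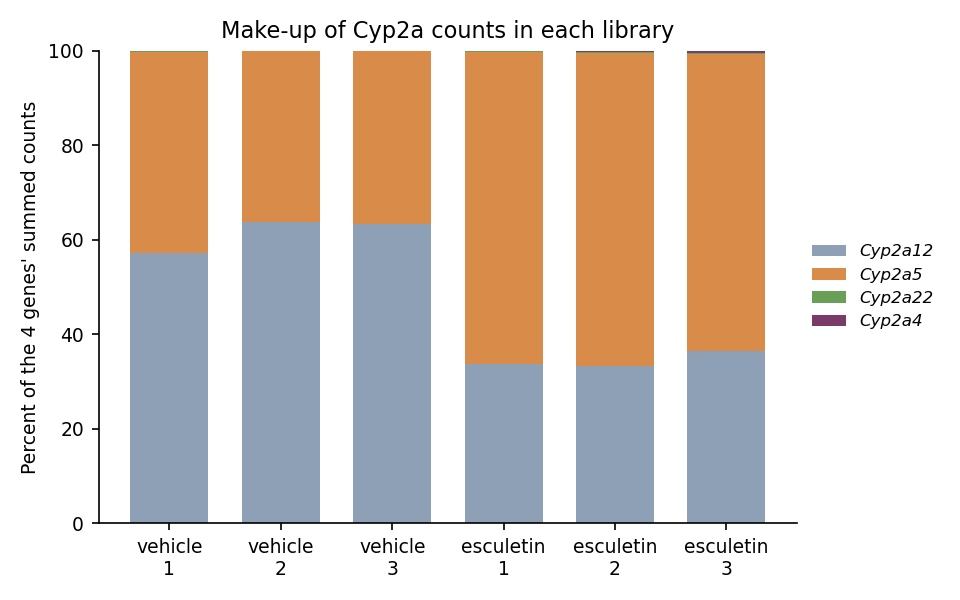
Stacked bars of the percent of the 4 genes' summed counts that fell on each gene, for 3 vehicle and 3 esculetin libraries. Cyp2a12 held 57.2% to 63.7% with vehicle and Cyp2a5 held 62.9% to 66.3% with esculetin, and the other genes together are barely visible.

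Counts depend on transcript length, so levels between genes were compared as CPM per kilobase of annotated exons. On this scale Cyp2a5 had 204, 165 and 180 and Cyp2a12 had 164, 175 and 188 CPM per kilobase in the vehicle libraries, ranges that overlapped. With esculetin Cyp2a5 had 549 to 645 and Cyp2a12 had 191 to 196 CPM per kilobase. The rarer genes overlapped with vehicle, at 0.193 to 0.310 for Cyp2a22 and 0.0353 to 0.235 for Cyp2a4, and were apart with esculetin, at 0.471 to 0.768 and 1.31 to 4.78 CPM per kilobase. Cyp2a12 and Cyp2a22 have longer annotated isoforms besides the canonical transcript, and the order in vehicle depended on this. Per kilobase of the canonical transcript, 1681 bases for Cyp2a12 and 2032 for Cyp2a5, Cyp2a12 had 336 to 386 and Cyp2a5 had 168 to 208 CPM in the vehicle libraries, with Cyp2a12 above Cyp2a5 in each. On this scale Cyp2a22 (0.446 to 0.716) also lay above Cyp2a4 (0.0353 to 0.235) with vehicle, without overlap. With esculetin the canonical values were 392 to 404 for Cyp2a12 and 560 to 658 for Cyp2a5, so Cyp2a5 was the higher of the pair under both lengths, while Cyp2a22 (1.09 to 1.77) then overlapped Cyp2a4 (1.31 to 4.78).

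Near-identical sequences raise the question of whether counts of a rare gene followed those of its abundant partner. Cyp2a4 made up 0.0966%, 0.0179% and 0.0488% of the summed Cyp2a4 and Cyp2a5 counts in the vehicle libraries and 0.170%, 0.469% and 0.724% in the esculetin libraries. All esculetin shares were above all vehicle shares, although the exact intervals of vehicle library 1 (0.0499% to 0.169%) and esculetin library 1 (0.133% to 0.213%) overlapped. The share of Cyp2a22 in the summed Cyp2a22 and Cyp2a12 counts was 0.210%, 0.213% and 0.124% with vehicle and 0.292%, 0.291% and 0.482% with esculetin. Cyp2a21-ps, a pseudogene chosen for comparison after its values were seen, made up 0.0805%, 0.0807% and 0.0975% of its sum with Cyp2a5 in the vehicle libraries and 0.0860%, 0.0799% and 0.105% in the esculetin libraries. Its shares overlapped between the groups while both it and Cyp2a5 had more counts with esculetin, with a log2 fold change of 1.79 for Cyp2a21-ps and 1.74 for Cyp2a5. The ratio of the mean share with esculetin to that with vehicle was 1.05 for Cyp2a21-ps, 1.95 for Cyp2a22 and 8.34 for Cyp2a4. The ratio of Cyp2a4 was 13.6 without vehicle library 1 and ranged from 5.86 to 11.0 without any other library. The part of misassigned reads in any of these counts was not tested. The antisense gene Gm42375 covers 535 exon bases (30.8%) of Cyp2a4 and had 0, 0 and 0 counts with vehicle and 0, 4 and 1 counts with esculetin, and whether the counting used strand is not given in the sources used here.

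**Figure D3:**
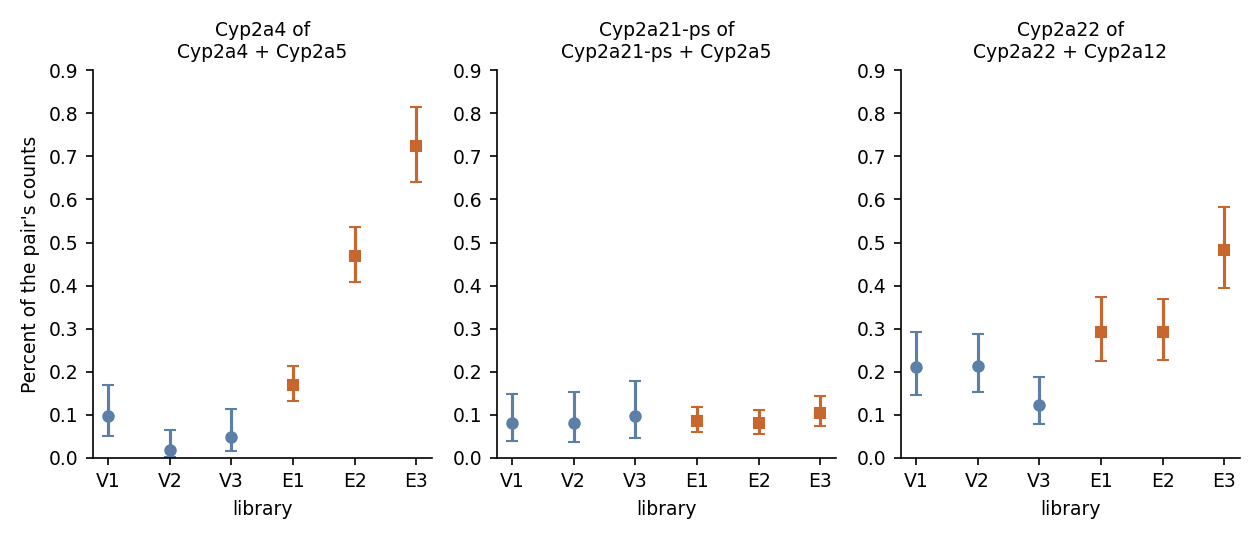
Percent of a pair's summed counts that fell on the rarer gene, with exact 95% binomial intervals, in 3 vehicle (V1 to V3, circles) and 3 esculetin (E1 to E3, squares) libraries. Cyp2a4 reached 0.724% in library E3, Cyp2a21-ps stayed between 0.0799% and 0.105%, and Cyp2a22 lay between 0.124% and 0.482%.

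Several other P450 genes of the same cluster were also higher with esculetin. Of the 12 other genes and pseudogenes, 6 entered the fit, and 4 of these passed the thresholds as higher and 0 as lower. Among all genes tested these shares were 1.37% and 1.76%. Cyp2b10 and Cyp2b9 met the filter on low counts only through their esculetin libraries, so that the difference decided their entry and this count is a description. Cyp2b10, a classical target of the receptor CAR, rose from 0.152 ± 0.0873 to 1.02 ± 0.337 CPM (SD, n = 3), with 4, 8 and 2 counts against 31, 48 and 24 (log2 fold change 2.69, SE 0.51). Cyp2b9, a female-biased P450, rose by a log2 fold change of 3.78 (SE 0.78) from 6, 0 and 4 counts to 50, 22 and 88. Cyp2g1, known from the olfactory mucosa, rose by 1.06 (SE 0.31) on the log2 scale, from 1.20 to 2.50 CPM. The fourth gene was Cyp2a21-ps. The edgeR adjusted p-values of Cyp2b10, Cyp2b9, Cyp2g1 and Cyp2a21-ps were 0.132, 0.136, 0.242 and 0.132, so none passed the correction over all genes. Cyp2f2, the most abundant neighbour, had 837 CPM with vehicle and 781 CPM with esculetin (log2 fold change −0.10, SE 0.099), and Cyp2s1 had a log2 fold change of 0.13 (SE 0.39), and neither passed. The 4 that passed had means of at most 2.50 CPM in either group.

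**Figure D4:**
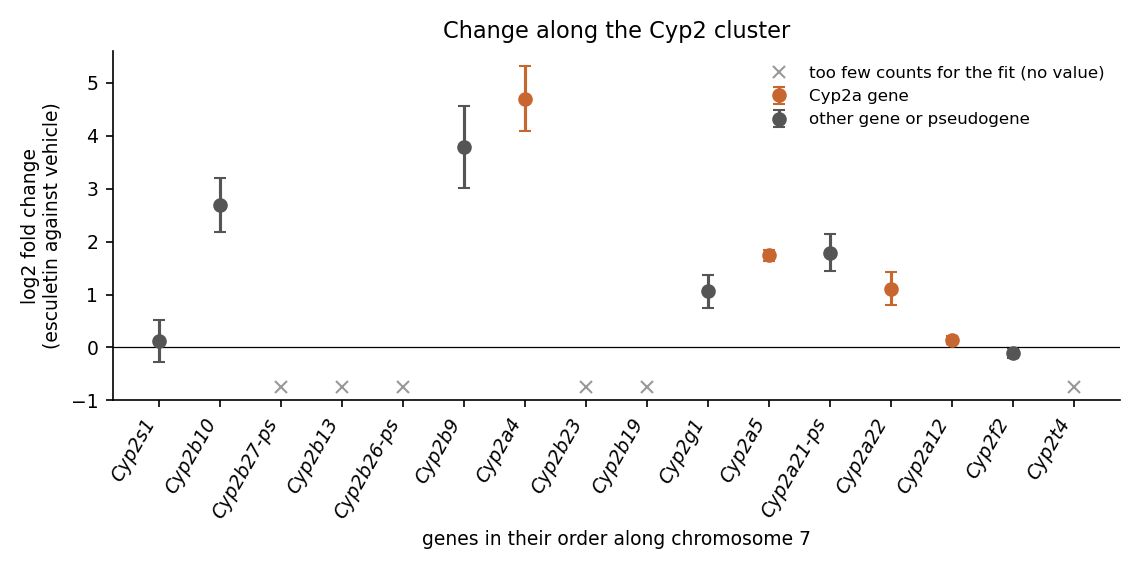
Log2 fold change (esculetin against vehicle, points with standard errors) of the Cyp2 cluster genes in their order along chromosome 7, with crosses for genes with too few counts. Cyp2a4 (4.69) and Cyp2b9 (3.78) stand highest, and Cyp2s1, Cyp2a12 and Cyp2f2 lie between −0.10 and 0.14.

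Factors known to act on the transcription or RNA of Cyp2a5 were listed to set their RNA levels beside it. Of 17 such regulators 0 passed the thresholds in either direction, and their median log2 fold change was −0.01, near the −0.008 of all genes. Nr1i2, which encodes the receptor PXR, had 76.4, 78.7 and 73.7 CPM with vehicle and 93.9, 90.3 and 97.8 CPM with esculetin. Its log2 fold change of 0.30 (SE 0.072) had an unadjusted p of 0.00196 and an edgeR adjusted p of 0.172. Nr1i3, which encodes CAR, had 26.9, 23.8 and 17.4 CPM with vehicle and 27.6, 29.6 and 31.7 CPM with esculetin, and its log2 fold change was 0.39 (SE 0.14, edgeR adjusted p = 0.345). For both receptors the groups did not overlap, but the fold changes were under 1.5. Usf2 (log2 fold change 0.17, SE 0.095) was also higher in every esculetin library. Nfix was lower in every esculetin library (−0.20, SE 0.082, edgeR adjusted p = 0.380). Of all 14433 genes tested, 9.2% were higher in every esculetin library and 1190 genes were lower in every one. Nfe2l2, which encodes the oxidative stress factor NRF2, had a log2 fold change of −0.25 (SE 0.15), Hnf4a of 0.11 (SE 0.11) and Ahr of 0.11 (SE 0.13), and the groups overlapped for each. These are RNA levels, and the activity of the factors was not measured.

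Known target genes of these regulators were counted beside them. Of 9 NRF2 targets tested, 1 passed as higher and 0 as lower, against 1.37% and 1.76% of all genes. Nqo1, a quinone reductase, rose from 4.46, 2.64 and 2.19 CPM to 7.03, 9.66 and 7.35 CPM (log2 fold change 1.37, SE 0.26, edgeR adjusted p = 0.132). The list had 8 of 9 log2 fold changes above 0, against 48.5% of all genes, with a median of 0.12. Srxn1 (0.46) and Ugdh (0.37) had groups that did not overlap but were under 1.5-fold, and Hmox1, Gclc and Gclm had 0.11, 0.06 and −0.01. Of 10 CAR, PXR and AhR targets tested, 1 passed as higher and 1 as lower, against the same 1.37% and 1.76% of all genes. The higher one was Cyp2b10, which entered the fit only through its esculetin libraries. Its mean with esculetin was 1.02 CPM and its edgeR adjusted p 0.132. Cyp2c55 fell by 0.94 on the log2 scale, while Cyp3a11 (−0.14), Cyp1a1 (0.26) and Cyp1a2 (−0.02) did not pass. The call of Cyp2c55 was lost with limma-voom and without vehicle library 2 or any 1 of the esculetin libraries.

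The partners of P450 enzymes gave 0 of 15 genes past the thresholds, with a median log2 fold change of −0.01. A few were higher in every esculetin library, as were 9.2% of all genes tested. Uros was lower in every esculetin library, as were 1190 of all 14433 genes tested. It had 19.0, 19.8 and 16.7 CPM with vehicle and 15.4, 15.5 and 14.3 CPM with esculetin (log2 fold change −0.30, SE 0.10, edgeR adjusted p = 0.304). P450 oxidoreductase (Por), the electron donor, had 232, 184 and 195 CPM with vehicle and 292, 273 and 304 CPM with esculetin. Its log2 fold change was 0.51 (SE 0.098, edgeR adjusted p = 0.132), a fold change just under 1.5. Cyb5a, which encodes cytochrome b5, had a log2 fold change of 0.32 (SE 0.077), and Blvrb, a biliverdin reductase, had 0.41 (SE 0.084). Alas1, the first enzyme of haem synthesis, ranged from 318 to 747 CPM with vehicle and from 405 to 690 CPM with esculetin, so its groups overlapped.

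**Figure D5:**
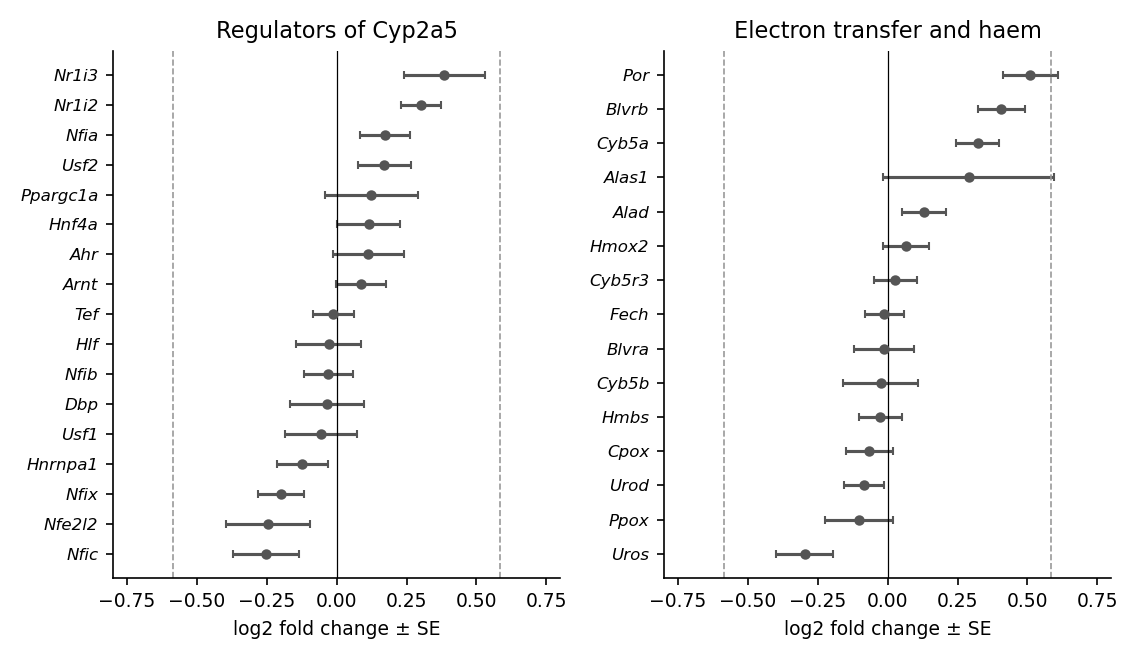
Log2 fold change (esculetin against vehicle) with standard errors for 17 regulators of Cyp2a5 and for 15 genes of electron transfer and haem metabolism, with dashed lines at a fold change of 1.5 in either direction. No gene lies beyond the dashed lines, and Nr1i3 (0.39) and Por (0.51) are the highest of their lists.

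Of 19 tested enzymes that can conjugate hydroxycoumarins, 1 rose and 2 fell, against 1.37% and 1.76% of all genes. In this list 14 had a log2 fold change above 0, against 48.5% of all genes. The median was 0.21, against −0.008 for all genes. Their summed level was 4617 to 5431 CPM in the vehicle and 5482 to 6006 CPM in the esculetin libraries. The sulfotransferases Sult1a1 (log2 fold change 0.47, SE 0.098) and Sult1d1 (0.51, SE 0.13) and the glucuronosyltransferases Ugt2b5 (0.40, SE 0.088) and Ugt2b36 (0.33, SE 0.072) had groups that did not overlap. In 9.2% of all genes tested every esculetin library was likewise above every vehicle library. These enzymes were under 1.5-fold and had edgeR adjusted p-values of 0.136, 0.203, 0.152 and 0.152. The glucuronosyltransferase Ugt2b35 had 235, 256 and 254 CPM with vehicle and 376, 378 and 378 CPM with esculetin. The groups were far apart relative to their spread, with a log2 fold change of 0.60 (SE 0.072), and it alone among the listed genes had an edgeR adjusted p under 0.05, at 0.0291. This fold change was close to the threshold, and the call was lost with total-count scaling and without vehicle library 1. Ugt2b37 and Ugt2b38 fell by 0.98 and 0.61 on the log2 scale, but both calls were lost with limma-voom and without vehicle library 2, vehicle library 3 or esculetin library 3, and that of Ugt2b37 also with DESeq2, with at least 10 counts in each library and without esculetin library 1. Ugt1a1, a glucuronosyltransferase, had a log2 fold change of 0.14 (SE 0.11) and did not pass. The Ugt2b genes are a family of similar sequences, and how far they share reads was not tested.

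Cyp2a5 is a pericentral gene and Cyp2a4 is a female-biased gene of mouse liver, so genes with those patterns were counted too. Of 11 pericentral genes 0 passed as higher and 1 as lower, Axin2, which fell by 0.87 on the log2 scale (SE 0.21, edgeR adjusted p = 0.172), while Glul (−0.15) and Cyp2e1 (0.18) did not pass. Of 10 periportal genes 0 passed in either direction. Among all genes tested 1.37% passed as higher and 1.76% as lower. Of 16 female-biased genes 7 entered the fit, and 3 passed as higher, among them Fmo2 and Cyp2b9, the latter again entering only through its esculetin libraries. Fmo2, a flavin monooxygenase, had 21.4, 17.6 and 22.0 CPM with vehicle and 29.5, 31.6 and 47.2 CPM with esculetin, without overlap (log2 fold change 0.83, SE 0.17, edgeR adjusted p = 0.136). Of 13 male-biased genes tested 6 passed as lower and 0 as higher, with a median log2 fold change of −0.49, and Slp had no match in the annotation. Serpina1e, an abundant male-biased serpin gene, had 6791, 11519 and 12818 CPM with vehicle and 6306, 4473 and 3410 CPM with esculetin (log2 fold change −1.13, SE 0.25, edgeR adjusted p = 0.155). The other male-biased genes that passed were Selenbp2, Cyp7b1, Cyp4a12a, Elovl3 and Ugt2b38. The call of Elovl3 was lost without esculetin library 3, and that of Cyp4a12a with DESeq2, with limma-voom and without vehicle library 2 or 3 or esculetin library 1 or 2. Vehicle library 1 had the lowest Serpina1e and the highest Cyp2a4 of the vehicle libraries, and for Selenbp2 its 633 CPM lay within the esculetin range of 475 to 758 CPM. The part of these patterns in the level of Cyp2a4 was not tested.

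The genes whose log2 CPM most resembled that of Cyp2a5 over the 6 libraries, among 7236 genes with a mean of at least 10 CPM, were Ces1g, Ndufb9, Rbp4, Acaa1a and Ndufa5. Their Pearson r lay between 0.991 and 0.994. For Cyp2a4 they were Ugt2b5, Pcx, Bphl, Sdhd and Atp5pf, with r between 0.989 and 0.993. No gene stood in both lists of 5. With 6 libraries in 2 groups, these correlations cannot be told apart from the difference between the groups and are given as a description.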

How the data were processed

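RNA was isolated from livers with Trizol and libraries were made with the NEBNext Ultra RNA kit. The authors mapped 150-base paired-end reads with HISAT2 2.2.1 and counted them per gene with featureCounts, and they deposited raw counts. The study's methods name GRCm39, while the submitters' processing notes list both GRCm39 and mm10. Gene symbols and coordinates came from GENCODE for GRCm39, which held 54749 of 55357 identifiers, and promoter sequences from RefSeq (GRCm38.p6).

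Genes were kept with filterByExpr, scaled with TMM and compared in R 4.3.3 by edgeR 4.0.16 (quasi-likelihood, two-sided), with Benjamini-Hochberg adjustment over all genes tested. Calling required p under 0.05 before adjustment and more than a 1.5-fold difference. At these totals 3 counts equal 0.0859 to 0.107 CPM. Libraries of a group differed by at least 26.6 in chi-square per gene, so none was a copy. The members and gene lists were chosen with earlier results of these data known. Genes named were the 4 members, listed genes that passed (or up to 3 of smallest p where none did), regulators, and the 5 genes most like Cyp2a5 and Cyp2a4. Cyp2a21-ps and the other listed genes named without a call were picked after their values were seen. Alternatives were DESeq2 1.42.0, limma-voom (limma 3.58.1), other scalings and filters, a replicate block, each library left out, other fold thresholds and other transcript lengths, of which the canonical length was added after seeing the data. Values of some listed genes are not reported here.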

Additional observations from a re-analysis of the deposited data

How the results depend on the processing

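The log2 fold changes of the members kept their direction in all 51 alternative values. With all 6 libraries they ranged from 4.55 to 4.77 for Cyp2a4, 1.72 to 1.75 for Cyp2a5, 0.12 to 0.16 for Cyp2a12 and 1.08 to 1.12 for Cyp2a22, and with 1 library left out from 4.22 to 5.54, 1.68 to 1.83, 0.10 to 0.20 and 0.85 to 1.25. Cyp2a4 had no value where each library needed 10 counts or more. The 198 genes called higher became 361 without a filter, 943 without a fold threshold and 94 with a fold over 2 (191 to 272 with 1 library left out), and the 254 called lower became 415, 768 and 123 (220 to 367). The 6 genes with an adjusted p-value under 0.05 became 193 with DESeq2 and 477 without a filter, and ranged from 2 (without vehicle library 2) to 45 (without vehicle library 1), with 15 without vehicle library 3. The 16 called genes of the lists other than cell type markers became 35 without a fold threshold and 6 with a fold over 2 (12 to 23 with 1 library left out). Per kilobase of the canonical transcript the vehicle levels were 360 CPM for Cyp2a12, against 175 over all exons, and 0.608 for Cyp2a22, against 0.263. The replicate numbers do not pair the libraries (correlations of deviations −0.221, −0.0499 and −0.00397), and with the replicate number as a block the number past adjustment was 15 and the changes of Cyp2a4 and Cyp2a5 were 4.55 and 1.74 on the log2 scale, and Ugt2b38 was no longer called. The causes of these shifts were not tested. Pools of 2 mice, 3 per group, and the unstated handling of reads shared by paralogs limit the rare genes Cyp2a4 and Cyp2a22 most.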
